A study of Mus musculus with 3 samples.

Results

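The F1 subline of the mouse B16 melanoma was set against the F0 subline across the transcriptome. Genes were compared where the value reached at least 1 RPKM (the reads of a transcript divided by its length and by the size of the library) in either of these libraries, and rows holding a spreadsheet date in place of a symbol were left out. This kept 10513 of 14293 genes, of which 10031 reached 1 RPKM in both libraries, 229 in F1 alone and 253 in F0 alone. The study profiled polyadenylated RNA from cultures of F1, F0 and F10, all of the B16 line from C57BL/6J mice, with 1 library for each subline. Cells of every subline grew in high-glucose medium with 8% serum and were harvested before confluence, and no subline was treated. F0 is the parental line and F1 the first of a series named for passages through mouse lung, while F10 is the widely used lung-colonising line. With 1 library a side there is no replicate check, no test and no p-value. Differences of the subline, of the culture and of the library cannot be told apart; the labels call each subline a subclone. Differences are given as F1 minus F0 on the log2(RPKM + 1) scale, which understates the differences of low genes. Ratios are F1 over F0 in RPKM, with a 95% interval that covers counting error only.

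Depth was estimated from the steps between low RPKM values. A transcript of 1 kb at 1 RPKM held about 6.33 fragments in F1 and 5.45 in F0, so 3 fragments stood at 0.474 RPKM in F1 and 0.550 in F0. The median compared gene held about 144 fragments in F1 and 124 in F0. The melanocyte label held in both libraries. All 12 melanocyte markers were compared, among them Tyrp1, a melanin enzyme, at 2864 RPKM in F1 and 2755 RPKM in F0, and Sox10, a neural crest transcription factor, at 59.5 RPKM in F1 and 68.9 RPKM in F0. Of these 12 markers 2 lay above their F0 level and 10 below, with a median difference of -0.34. At least 2-fold lower was 1, Trpm1, against 1.04% of all compared genes. Markers of other cells were low. Fibroblast markers summed to 4.69 RPKM in F1 and 5.45 in F0, and endothelial markers to 0.348 in F1 and 0.374 in F0. Epithelial markers summed to 0.0363 RPKM in F1 and 0.392 in F0. Skeletal muscle markers summed to 18.6 RPKM in F1 and 18.8 in F0, and nerve markers, several of which melanoma cells also make, to 126 in F1 and 133 in F0. Leukocyte markers summed to 1.63 RPKM in F1 and 1.37 in F0, of which Lyz2, a lysozyme of myeloid cells, gave 1.37 in F1 and 1.23 in F0, while the pan-leukocyte marker Ptprc read 0.0308 RPKM in F1 and was listed at 0 in F0. Among cells of 1 culture, fewer cells of a state and less RNA per cell cannot be told apart.

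Several pathways named below are linked. When unfolded proteins gather in the endoplasmic reticulum (ER), the sensors PERK, IRE1 and ATF6 start the unfolded protein response. PERK and other kinases phosphorylate the initiation factor eIF2alpha, which slows most translation and favours that of ATF4, a factor that turns on genes of amino acid supply and, with prolonged stress, the factor CHOP. IRE1 and ATF6 act through XBP1 and cleaved ATF6 on chaperone genes. Sterol genes answer to the SREBP factors, which are also held in the ER until sterols run low. Melanoma cells make and fold large amounts of secretory and melanosomal protein, and these branches are well known in them.

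At least 2-fold differences were few. In F1, 104 genes (0.989% of those compared) were at least 2-fold higher and 109 (1.04%) at least 2-fold lower, together 213 (2.03%). Of these, 9 were at least 4-fold higher and 10 at least 4-fold lower. The median difference was -0.01 and the middle quartiles ran between -0.22 and 0.20. By level, the share at least 2-fold apart was 3.93% for genes of 1 to 2 RPKM and 0.915% for genes above 100 RPKM. Of the 102 higher genes with a known transcript length, 89 had a counting interval above 1, as 99 of 107 lower genes had one below 1. The 52 gene lists, which covered 1299 of the compared genes, held 26 of the higher and 33 of the lower genes. The shares of 0.989% higher and 1.04% lower are the background for counts of list members below.

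**Figure D1:**
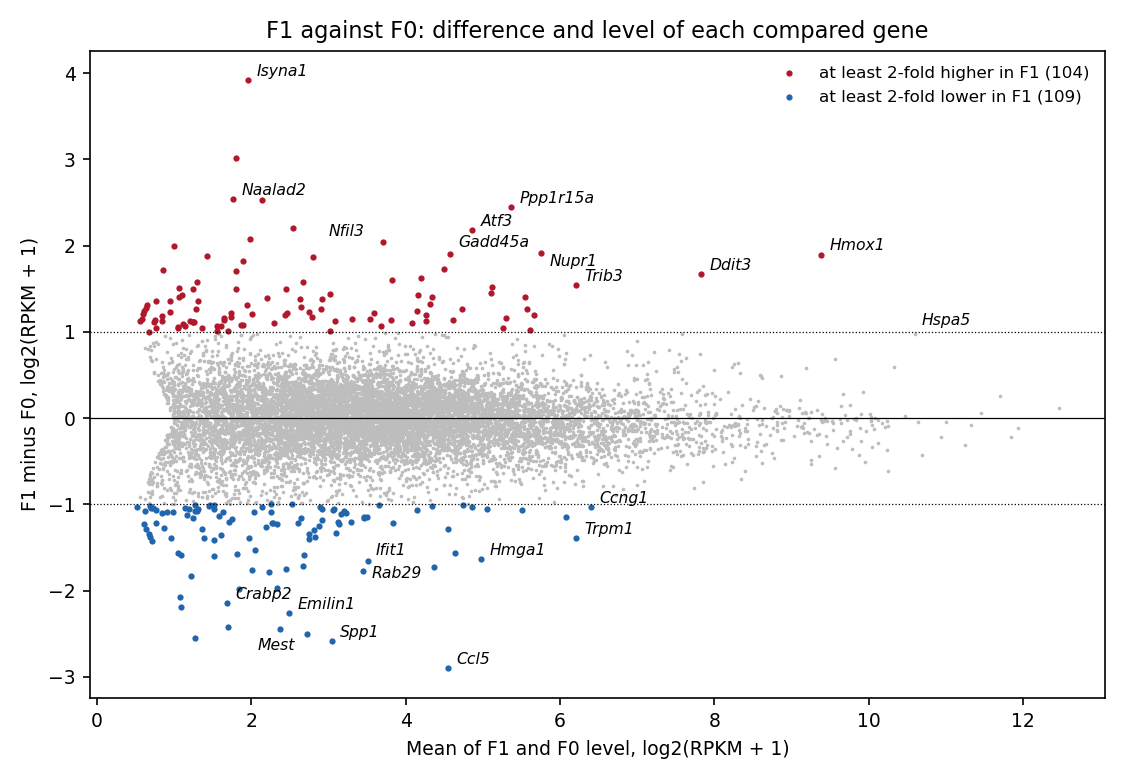
Difference between F1 and F0 in log2(RPKM + 1) (vertical axis) against the mean log2(RPKM + 1) of both libraries (horizontal axis), 1 point for each of the 10513 compared genes, with dotted lines at 2-fold. The 104 genes at least 2-fold higher in F1 are red and the 109 at least 2-fold lower are blue. Among abundant genes, Hmox1, Ddit3 and Trib3 stand above the upper line and Ccng1 and Trpm1 below the lower.

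The transcription factors and regulators of the stress response were higher in F1 as a group. Of 27 compared members, 9 were at least 2-fold higher (background 0.989%) and none at least 2-fold lower. The list lay above its F0 level for 20 members and below it for 7, with a median of 0.49. The largest difference was that of Ppp1r15a, the stress-induced phosphatase subunit that reverses eIF2alpha phosphorylation, at 95.9 RPKM in F1 and 16.7 RPKM in F0, a ratio of 5.74 (4.96 to 6.67). Atf3, a repressor-type factor induced downstream of ATF4, read 60.9 RPKM in F1 and 12.6 RPKM in F0, a ratio of 4.82 (4.0 to 5.86). Ddit3, which encodes CHOP, read 404 RPKM in F1 and 126 RPKM in F0, a ratio of 3.2 (2.89 to 3.54), and so was the most abundant of the 9. These genes act downstream of eIF2alpha phosphorylation, which PERK and other kinases can carry out. Phosphorylation was not measured. Trib3, a pseudokinase that binds ATF4, read 125 RPKM in F1 and 42.4 RPKM in F0, a ratio of 2.96 (2.66 to 3.29). Atf5 and Cebpg, both leucine zipper partners in this response, read 75.1 RPKM in F1 and 27.7 in F0 for Atf5 and 30.6 RPKM in F1 and 11.6 in F0 for Cebpg. Nupr1, a small stress-induced chromatin protein, read 104 RPKM in F1 and 26.8 RPKM in F0, a ratio of 3.87 (3.17 to 4.79). Gadd45a, a growth arrest and DNA damage protein, read 45.1 RPKM in F1 and 11.3 RPKM in F0, a ratio of 4.0 (2.82 to 5.67). Nfil3, a repressor that also belongs to the clock list, read 25.4 RPKM in F1 and 5.43 RPKM in F0, a ratio of 4.68 (3.53 to 6.28).

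The sensors and the upstream factors differed less. Atf4 itself read 459.9 RPKM in F1 and 328 RPKM in F0, a ratio of 1.4 (1.33 to 1.48), and Xbp1, whose mRNA IRE1 splices, 93.1 RPKM in F1 and 73.5 RPKM in F0, a ratio of 1.27 (1.12 to 1.44). Gene-level values do not show how much Xbp1 was spliced. Atf6 had a ratio of 2.01 (1.82 to 2.22) and lay just short of 2-fold on the log2(RPKM + 1) scale at 0.96. Ern1, which encodes IRE1, read 9.68 RPKM in F1 and 5.68 in F0 and Eif2ak3, which encodes PERK, 19 RPKM in F1 and 16.9 in F0, with intervals of the ratio of 1.16 to 2.6 and 0.949 to 1.33. The other eIF2alpha kinases stood on the low side in F1. Eif2ak2, the kinase activated by double-stranded RNA, read 12.6 RPKM in F1 and 17.3 RPKM in F0, and Eif2ak4, the amino acid sensor GCN2, 7.28 RPKM in F1 and 9.45 RPKM in F0. Eif2ak1, the haem-regulated kinase HRI, read 24.3 RPKM in F1 and 27 in F0, a ratio of 0.899 (0.806 to 1.01). Chac1, which degrades glutathione, read 78.3 RPKM in F1 and 43.5 RPKM in F0, while the mTOR inhibitor Ddit4 read 22.4 RPKM in F1 and 22 in F0, a ratio of 1.02 (0.841 to 1.23). In the F10 library, whose difference from F0 shares the same F0 value, Ppp1r15a read 14.5 RPKM, Ddit3 100.2, Atf3 5.34 and Nupr1 35.2.

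Promoters of genes on these lists are shown because motif letters of the stress factors can be read in them. A composite site for ATF4 with a C/EBP partner was searched as TGATGNAAN on either strand, in the RefSeq windows of 250 bases before to 50 after the start on GRCm38.p6. It stood in 4.50% of all 27025 genes with a window and in 2.53% of the 8129 compared genes that matched one. Of the genes at least 2-fold higher in F1 with a window, 11 of 80 held it, and of those at least 2-fold lower 1 of 81, Usp6nl. The 11 were Atf3, Cln3, Cyb5r2, Fam151b, Nupr1, Pycr1, Rab39b, Slc7a11, Trib3, Trim46 and Vldlr. Of the stress list, 4 of 24 held it, namely Atf3, Chac1, Nupr1 and Trib3, and no match was found for Ppp1r15a, Nfil3, Gadd45a or Ddit3. Of the cytosolic aminoacyl-tRNA synthetases, also higher in F1, 5 of 12 held it. Lists lower in F1 held it too, in 4 of 35 lysosomal, 3 of 32 interferon-stimulated and 2 of 21 cholesterol windows. Others lower in F1 held it in 1 of 36 DNA replication and 0 of 19 glutathione transferase windows. A match is a description of letters and not a site shown to be bound, and a window without one says nothing of the factor. The 250 bases before the start follow, 5′ to 3′ along the gene, with the composite letters in capitals. They begin 111 bases before the start in Atf3 and in Nupr1, both times on the opposite strand. In Slc7a11, the cystine importer described with the amino acid transporters, they occur on each strand, at 66 and 48 bases before the start.
Atf3, chr1:191183334-191183583, minus strand: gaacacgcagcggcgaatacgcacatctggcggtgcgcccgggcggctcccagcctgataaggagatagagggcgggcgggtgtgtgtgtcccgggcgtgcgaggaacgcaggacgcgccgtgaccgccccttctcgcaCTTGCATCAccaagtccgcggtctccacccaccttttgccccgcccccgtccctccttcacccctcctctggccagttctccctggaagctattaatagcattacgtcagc
Nupr1, chr7:126625471-126625720, minus strand: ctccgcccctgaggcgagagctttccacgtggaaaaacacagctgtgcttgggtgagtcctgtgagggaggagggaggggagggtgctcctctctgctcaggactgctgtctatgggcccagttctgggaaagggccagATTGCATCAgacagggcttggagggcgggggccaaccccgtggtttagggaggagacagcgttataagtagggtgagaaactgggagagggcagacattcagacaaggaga
Slc7a11, chr3:50443614-50443863, minus strand: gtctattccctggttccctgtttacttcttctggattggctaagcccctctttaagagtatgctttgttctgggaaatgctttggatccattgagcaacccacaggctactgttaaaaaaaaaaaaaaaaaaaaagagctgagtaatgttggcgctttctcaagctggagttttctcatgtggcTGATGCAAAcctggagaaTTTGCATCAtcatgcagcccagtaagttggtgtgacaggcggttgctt

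**Figure D2:**
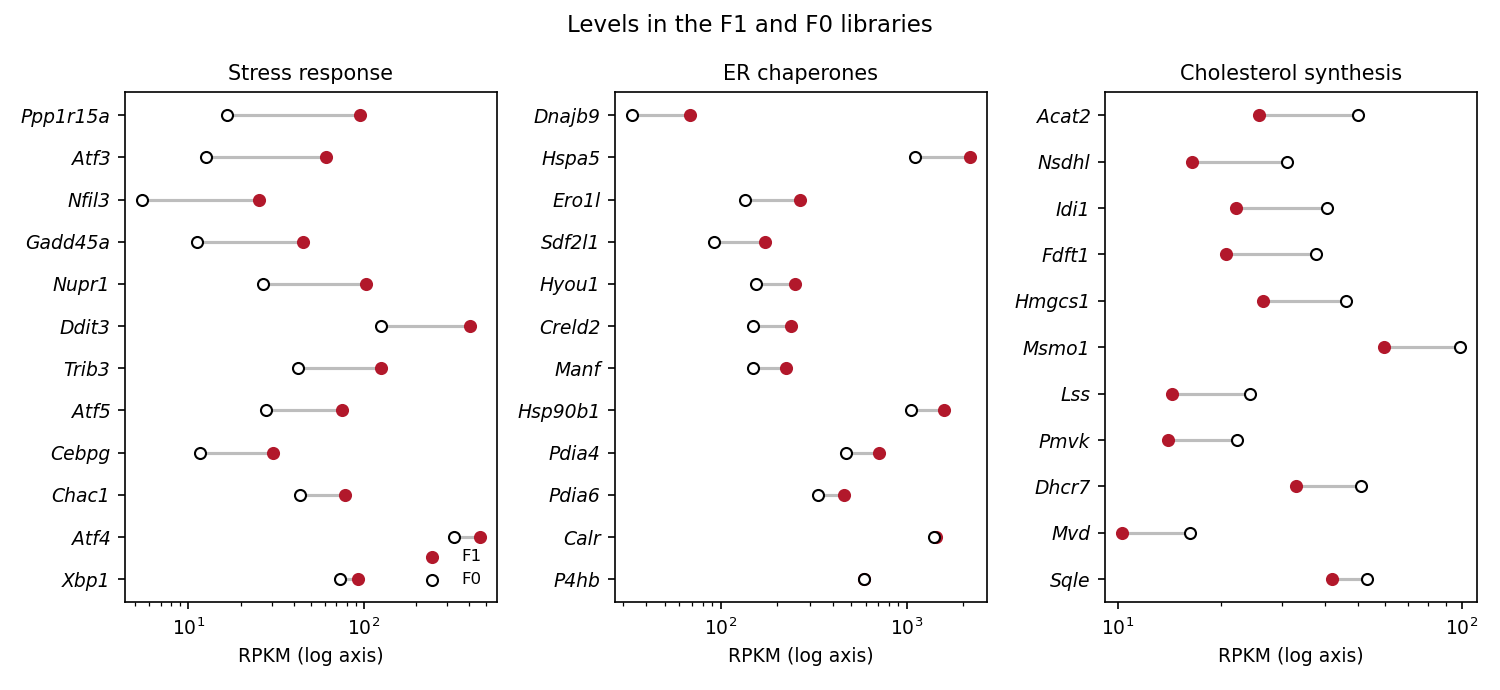
RPKM (log axis) of 12 stress response, 12 ER chaperone and 11 cholesterol synthesis genes in the F1 library (red) and the F0 library (open), 1 library each, with a grey line joining the values of a gene. The F1 point lies to the right for each stress gene and to the left for each cholesterol gene, while those of Calr and P4hb coincide with F0.

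Chaperones and folding enzymes of the ER were higher in F1 by smaller steps. Of 25 compared members, 22 lay above their F0 level and 3 below, with a median of 0.42. Only Dnajb9, a co-chaperone of BiP, was counted at least 2-fold higher, at 68.6 RPKM in F1 and 33.4 RPKM in F0, a ratio of 2.05 (1.77 to 2.39). Hspa5, which encodes BiP, the main ER chaperone, read 2175 RPKM in F1 and 1103 RPKM in F0, a ratio of 1.97 (1.94 to 2.01) resting on about 42687 estimated fragments in F1 and 18654 in F0. Ero1l, the oxidase that drives disulphide formation, read 268 RPKM in F1 and 136 RPKM in F0, a ratio of 1.97 (1.87 to 2.08). Both lay just short of the 2-fold line on the log scale, at 0.98 and 0.97. Hyou1, a BiP exchange factor, read 252 RPKM in F1 and 154 RPKM in F0, and Hsp90b1, the ER form of HSP90, 1577 RPKM in F1 and 1046 RPKM in F0. Sdf2l1 and Creld2, further stress-induced ER proteins, read 173 RPKM in F1 and 92.4 in F0 for Sdf2l1 and 239 RPKM in F1 and 149.8 in F0 for Creld2. The abundant lectin chaperones stood apart from these. Calr read 1426 RPKM in F1 and 1397 RPKM in F0, a ratio of 1.02 (0.999 to 1.04), Canx 322 RPKM in F1 and 317 in F0, and the disulphide isomerase P4hb 591 RPKM in F1 and 591 in F0. Fkbp14, a prolyl isomerase, was the member farthest below its F0 level, at 7.7 RPKM in F1 and 13 RPKM in F0, a ratio of 0.593 (0.46 to 0.762). In F10, against the same F0 library, the list's median was -0.52, and Hspa5 read 768 RPKM.

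The ER stress element, CCAAT followed by 9 bases and CCACG, was searched on either strand in the same windows. It stood in 0.137% of all genes with a window and in 0.209% of the compared genes matched. Of 19 ER chaperones with a window, 7 held it, namely Calr, Canx, Creld2, Dnajc3, Hsp90b1, Hspa5 and Pdia6. The letters thus occur in Hspa5, with a ratio near 2, and in Calr and Canx, whose levels were near those of F0. The 250 bases before the start are given for Hspa5 and Creld2, with the element in capitals, beginning 65 bases before the start in Hspa5 and, on the opposite strand, 126 bases before it in Creld2.
Hspa5, chr2:34771840-34772089, plus strand: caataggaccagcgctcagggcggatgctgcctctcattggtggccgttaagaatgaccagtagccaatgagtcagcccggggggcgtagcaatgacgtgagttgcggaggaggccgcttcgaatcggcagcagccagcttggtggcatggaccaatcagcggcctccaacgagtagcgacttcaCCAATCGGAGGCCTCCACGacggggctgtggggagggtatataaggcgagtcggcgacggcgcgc
Creld2, chr15:88819396-88819645, plus strand: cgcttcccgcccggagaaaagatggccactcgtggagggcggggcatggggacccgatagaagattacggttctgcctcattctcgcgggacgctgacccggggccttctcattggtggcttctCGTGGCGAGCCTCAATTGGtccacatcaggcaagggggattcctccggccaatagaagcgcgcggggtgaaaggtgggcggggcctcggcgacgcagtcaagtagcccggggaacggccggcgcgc

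Genes of ER-associated degradation and of entry into the ER followed in part. Of 28 compared members 21 lay above their F0 level and 7 below, with a median of 0.17. The ubiquitin ligase complex that removes misfolded proteins was on the high side in each member named here. Sel1l, its adaptor, was at least 2-fold higher at 58.1 RPKM in F1 and 25.5 RPKM in F0, a ratio of 2.28 (2.11 to 2.47). Syvn1, the ligase HRD1, read 39.8 RPKM in F1 and 25 RPKM in F0, and Herpud1, a stress-induced scaffold of the complex, 376 RPKM in F1 and 244 RPKM in F0. Vimp, a selenoprotein of the same complex, read 99.8 RPKM in F1 and 61.5 RPKM in F0, and Edem1, which marks glycoproteins for removal, 69.9 RPKM in F1 and 50.2 RPKM in F0. The entry machinery differed less, with Sec61a1, the pore subunit, at 203 RPKM in F1 and 197 in F0. The signal peptidase subunit Spcs1 was lower, at 70.4 RPKM in F1 and 122 RPKM in F0, a ratio of 0.577 (0.507 to 0.655).

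Genes of amino acid supply were also higher in F1. Of 15 amino acid transporters, 11 lay above their F0 level and 4 below, with a median of 0.36. Slc7a11, which imports cystine for glutathione, was at least 2-fold higher at 72.8 RPKM in F1 and 29.8 RPKM in F0, a ratio of 2.44 (2.27 to 2.63). Its heavy chain partner Slc3a2, shared with the leucine importer, read 194 RPKM in F1 and 114 RPKM in F0, and Slc7a5, the leucine importer, 119 RPKM in F1 and 78.6 RPKM in F0. The glycine carrier Slc6a9 read 16.5 RPKM in F1 and 9.35 RPKM in F0, and the glutamine carrier Slc1a5 52.6 RPKM in F1 and 31.6 RPKM in F0. The glutamine carriers Slc38a1 and Slc38a2 read 60.9 RPKM in F1 and 65.9 in F0 for Slc38a1 and 88.5 RPKM in F1 and 83.7 in F0 for Slc38a2, with differences of -0.11 and 0.08. The list was therefore uneven, with sodium-coupled glutamine carriers of the SLC38 family near their F0 level. Composite letters were found in 2 of 12 windows of the list, those of Slc1a4 and Slc7a11.

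The cytosolic aminoacyl-tRNA synthetases, which load amino acids onto tRNAs, gave a similar shift without any 2-fold difference. Of 20, 15 lay above their F0 level and 5 below, with a median of 0.39. Wars, for tryptophan, read 107 RPKM in F1 and 63.7 RPKM in F0, a ratio of 1.68 (1.55 to 1.82), and Eprs, for glutamate and proline, 176 RPKM in F1 and 111 RPKM in F0, a ratio of 1.58 (1.51 to 1.65). Gars, for glycine, read 384 RPKM in F1 and 267 RPKM in F0, and Aars, for alanine, 221 RPKM in F1 and 152 RPKM in F0. Mars, for methionine, and Qars, for glutamine, were on the low side, at 25.8 RPKM in F1 and 34.8 in F0 for Mars and 42.7 RPKM in F1 and 51.7 in F0 for Qars. Ribosomal proteins showed no such shift, with 32 of 80 above their F0 level, 48 below and a median of -0.03 (42 above and 38 below on the TPM scale).

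Serine, one-carbon, asparagine and proline synthesis had a median of 0.42. Of 19 members 15 lay above their F0 level and 4 below, with 2 at least 2-fold higher (background 0.989%). Serine synthesis starts with Phgdh, at 216 RPKM in F1 and 145 RPKM in F0, a ratio of 1.49 (1.37 to 1.62). Psat1, the second enzyme, read 168 RPKM in F1 and 149.6 RPKM in F0, a ratio of 1.12 (1.06 to 1.2), and Psph, the last, 80.7 RPKM in F1 and 48.7 RPKM in F0, a ratio of 1.66 (1.4 to 1.98). Asns, the asparagine synthetase, read 240.3 RPKM in F1 and 143 RPKM in F0, a ratio of 1.68 (1.53 to 1.85). All 3 serine enzymes and Asns thus lay above their F0 level, Psat1 least. Pck2, the mitochondrial enzyme that makes phosphoenolpyruvate, read 38.1 RPKM in F1 and 24.1 RPKM in F0. Pycr1, the last enzyme of proline synthesis, was at least 2-fold higher on few fragments, at 3.69 RPKM in F1 and 1.09 RPKM in F0, a ratio of 3.39 (1.18 to 11.2). Composite letters stood in 4 of 17 windows of the list, those of Asns, Got1, Pck2 and Pycr1.

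Folate-bound one-carbon units are handled by parallel enzymes in mitochondria and cytosol, and these branches were separated after their values had been seen. The 4 mitochondrial enzymes all lay above their F0 level, with a median of 0.38 and a summed level of 433 RPKM in F1 and 330 in F0. Aldh1l2, the mitochondrial 10-formyltetrahydrofolate dehydrogenase, was at least 2-fold higher at 35.5 RPKM in F1 and 15.5 RPKM in F0, a ratio of 2.29 (2.05 to 2.57). Shmt2 read 144 RPKM in F1 and 105 RPKM in F0 and Mthfd2 208 RPKM in F1 and 169.7 RPKM in F0. Of 7 cytosolic enzymes, 2 lay above and 5 below, with a median of -0.32. Aldh1l1, the cytosolic counterpart of Aldh1l2, was at least 2-fold lower at 4.84 RPKM in F1 and 11.1 RPKM in F0, a ratio of 0.435 (0.334 to 0.56). Mthfd1 read 20.6 RPKM in F1 and 27 RPKM in F0 and thymidylate synthase, Tyms, 15.6 RPKM in F1 and 22.4 RPKM in F0, while Shmt1 read 12.3 RPKM in F1 and 12.1 in F0. The paired dehydrogenases therefore differed between the sublines in opposite directions. In F10, Aldh1l2 read 27.9 RPKM and Aldh1l1 12.5.

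Targets of NRF2, the factor of the oxidative stress response, and genes of haem and iron had a median of 0.23. Of 34 members, 23 lay above and 11 below their F0 level, and 3 were at least 2-fold higher (background 0.989%). Hmox1, which opens the haem ring and is also an ATF4 and NRF2 target, was the most abundant gene at least 2-fold apart, at 1283 RPKM in F1 and 344 RPKM in F0, a ratio of 3.73 (3.59 to 3.89). Blvrb, a reductase acting on the products of haem breakdown, read 32.1 RPKM in F1 and 11.5 RPKM in F0, a ratio of 2.8 (2.03 to 3.88). Its counterpart Blvra went the other way, at 29.1 RPKM in F1 and 41.9 RPKM in F0, a ratio of 0.693 (0.546 to 0.886). Srxn1, which repairs peroxiredoxins, read 152 RPKM in F1 and 87.9 RPKM in F0, and the autophagy receptor Sqstm1 959 RPKM in F1 and 597 RPKM in F0. Gclm, the modifier of glutathione synthesis, read 86.6 RPKM in F1 and 50.7 RPKM in F0, a ratio of 1.71 (1.47 to 1.99), while the catalytic Gclc read 24.4 RPKM in F1 and 20.9 in F0, a ratio of 1.16 (1.02 to 1.33). The lipid peroxide reductase Gpx4 stood lower, at 141 RPKM in F1 and 208 RPKM in F0, a ratio of 0.679 (0.619 to 0.745). In F10 Hmox1 read 139 RPKM.

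The glutathione transferases and related detoxifying enzymes, many of them also taken as NRF2 targets, did not follow. Of 23 members 3 lay above and 20 below their F0 level, with a median of -0.31 and 3 at least 2-fold lower (background 1.04%). Gstk1, the kappa-class enzyme, read 1.55 RPKM in F1 and 9.02 RPKM in F0, a ratio of 0.172 (0.0757 to 0.366). Gsta4, which acts on lipid aldehydes, read 2.51 RPKM in F1 and 10.5 RPKM in F0, a ratio of 0.239 (0.118 to 0.448), and Gstt1 0.618 RPKM in F1 and 3.24 RPKM in F0, a ratio of 0.191 (0.0471 to 0.581). These 3 rest on few fragments in F1, between 4 and 13. Ephx1, an epoxide hydrolase, was better covered and read 76.9 RPKM in F1 and 143 RPKM in F0, a ratio of 0.536 (0.482 to 0.596). The abundant Gstp1 read 813 RPKM in F1 and 921 RPKM in F0. Glutathione transferases are a multigene family whose reads can be shared between copies, so values of single members are uncertain.

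Cholesterol synthesis and uptake was the 1 list of 52 whose members all lay on the same side of F0. All 29 compared members lay below their F0 level, with a median of -0.46, against 5349 of 10513 compared genes below theirs. Under TPM or median ratio scaling 28 lay below and 1 above, which was Stard4, a sterol carrier at 8.38 RPKM in F1 and 8.43 in F0. No member reached 2-fold. Of the first steps, Acat2, which starts the pathway, stood at 25.8 RPKM in F1 and 50.1 RPKM in F0, a ratio of 0.515 (0.445 to 0.594), and Hmgcs1, which makes HMG-CoA, at 26.4 RPKM in F1 and 46.2 RPKM in F0, a ratio of 0.572 (0.511 to 0.638). Among the isoprenoid and squalene enzymes, Idi1 read 22.1 RPKM in F1 and 40.7 RPKM in F0, a ratio of 0.545 (0.419 to 0.706), and Fdft1 20.6 RPKM in F1 and 37.7 RPKM in F0, a ratio of 0.548 (0.484 to 0.62). Squalene epoxidase, Sqle, differed less, at 42.1 RPKM in F1 and 52.9 RPKM in F0, a ratio of 0.796 (0.717 to 0.882). Of the later sterol enzymes, Nsdhl read 16.5 RPKM in F1 and 31 RPKM in F0, a ratio of 0.531 (0.448 to 0.63), and Lss, the lanosterol synthase, 14.4 RPKM in F1 and 24.2 RPKM in F0, a ratio of 0.597 (0.502 to 0.711). The difference thus ran the length of the pathway. The regulators were closer to F0, with Srebf2, the factor SREBP2, at 28.4 RPKM in F1 and 29.7 in F0 and Scap, its escort, at 14.6 RPKM in F1 and 15.6 in F0. Mylip and Abca1, which lower uptake and raise export when sterols are high, also lay below their F0 level, at 4.35 RPKM in F1 and 7.19 in F0 for Mylip and 0.985 RPKM in F1 and 1.6 in F0 for Abca1. In F10, against the same F0 library, the list's median was 0.11.

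The sterol element, searched as TCACNCCAC on either strand, stood in 1.44% of all genes with a window and in 1.37% of the compared ones. Of 21 cholesterol list members with a window 1 held it, Hmgcs1. Its 250 bases before the start are given with these letters in capitals, beginning 137 bases before the start. Such sites vary from these letters, so the other windows may hold sites that were not searched.
Hmgcs1, chr13:119690101-119690350, plus strand: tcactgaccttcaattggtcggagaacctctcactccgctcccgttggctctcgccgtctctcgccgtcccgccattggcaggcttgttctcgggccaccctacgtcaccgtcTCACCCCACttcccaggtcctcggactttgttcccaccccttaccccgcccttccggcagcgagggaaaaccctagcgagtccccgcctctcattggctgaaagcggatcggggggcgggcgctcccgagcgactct

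Fatty acid synthesis and desaturation leaned the same way, with 19 of 22 members below their F0 level, 3 above and a median of -0.20. Fasn, the fatty acid synthase, read 27.7 RPKM in F1 and 42.2 RPKM in F0, a ratio of 0.658 (0.614 to 0.704). Elovl6, an elongase, read 6.9 RPKM in F1 and 10.2 RPKM in F0, and Fabp5, a fatty acid carrier, 251 RPKM in F1 and 356 RPKM in F0. Acly, which supplies acetyl-CoA to both pathways, read 84.6 RPKM in F1 and 108 RPKM in F0, a ratio of 0.786 (0.742 to 0.832). Scd2, the most abundant desaturase here, was near its F0 level at 285 RPKM in F1 and 305 RPKM in F0.

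**Figure D3:**
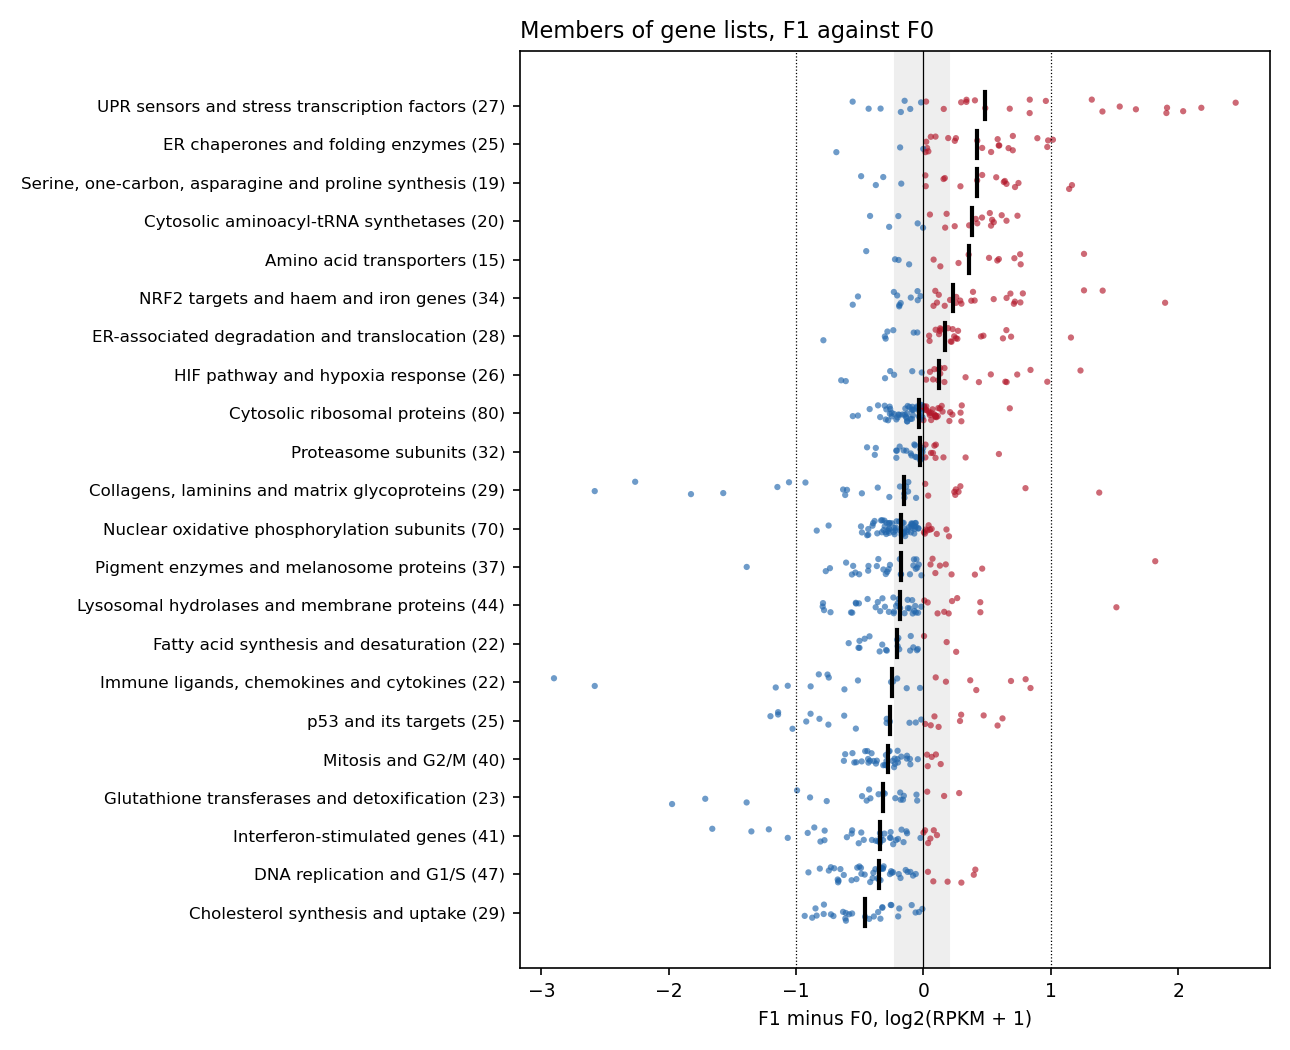
F1 minus F0 difference in log2(RPKM + 1) (horizontal axis) of each compared member of 22 gene lists, 1 point per gene, red above 0 and blue below; numbers in brackets are compared members, black bars list medians, dotted lines 2-fold and the grey band the middle quartiles of all compared genes, -0.22 to 0.20. The median runs between 0.49 for stress transcription factors and -0.46 for cholesterol synthesis, where all 29 points lie below 0 (28 of 29 under TPM or median ratio scaling).

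Genes of proliferation were lower in F1 by small steps. Of 47 DNA replication and G1/S genes, 41 lay below their F0 level and 6 above, with a median of -0.35, and of 40 mitosis genes 35 lay below and 5 above, with a median of -0.28. None was at least 2-fold apart. Ccne1, the cyclin of S phase entry, read 19.7 RPKM in F1 and 37.7 RPKM in F0, a ratio of 0.522 (0.424 to 0.637), and Pcna, the replication clamp, 253 RPKM in F1 and 412 RPKM in F0, a ratio of 0.614 (0.582 to 0.648). Prim1, a primase subunit, read 33.5 RPKM in F1 and 56.7 RPKM in F0, and Rfc3, of the clamp loader, 24 RPKM in F1 and 43 RPKM in F0. Cdk1, the mitotic kinase, read 53 RPKM in F1 and 81.6 RPKM in F0, a ratio of 0.649 (0.57 to 0.74), and Kif20a, a kinesin of cell division, 28 RPKM in F1 and 43.7 RPKM in F0. The most used proliferation markers did not share the difference, with Mki67 at 38.8 RPKM in F1 and 37.9 in F0 and Top2a at 99.52 RPKM in F1 and 103 in F0.

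Targets of p53, the DNA damage factor, split. Of 25 members 16 lay below and 9 above their F0 level, with 4 at least 2-fold lower (background 1.04%) and a median of -0.26. Tnfrsf10b, a death receptor, read 4.74 RPKM in F1 and 12.2 RPKM in F0, a ratio of 0.389 (0.301 to 0.497), and Trp53inp1 6.4 RPKM in F1 and 15.3 RPKM in F0, a ratio of 0.418 (0.353 to 0.492). Ccng1, a cyclin induced by p53, read 58.4 RPKM in F1 and 120.1 RPKM in F0, a ratio of 0.486 (0.454 to 0.521). Cdkn1a, the cell cycle inhibitor p21, read 83.3 RPKM in F1 and 155 RPKM in F0, a ratio of 0.538 (0.492 to 0.588). The cell cycle inhibitor was thus lower in F1 together with Ccne1, whose kinase it inhibits. Trp53 read 59.4 RPKM in F1 and 55.9 in F0, Bax 101 RPKM in F1 and 99.6 in F0 and Mdm2 38.1 RPKM in F1 and 45.9 in F0. Dcxr, an enzyme of xylulose metabolism, was the fourth member at least 2-fold lower, at 6.64 RPKM in F1 and 15.8 RPKM in F0.

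Interferon-stimulated genes, which cells make after sensing virus or interferon, were lower in F1. Of 41 members 35 lay below their F0 level and 6 above, 4 at least 2-fold lower (background 1.04%), with a median of -0.34. Ifit1, which binds viral RNA, read 5.41 RPKM in F1 and 19.2 RPKM in F0, a ratio of 0.281 (0.221 to 0.36), and Ifit3 8.39 RPKM in F1 and 20.8 RPKM in F0, a ratio of 0.404 (0.313 to 0.524). Cmpk2, a mitochondrial nucleotide kinase, read 0.905 RPKM in F1 and 3.86 RPKM in F0, a ratio of 0.235 (0.129 to 0.394). Isg15, the ubiquitin-like modifier, read 18.5 RPKM in F1 and 35.5 RPKM in F0, a ratio of 0.519 (0.392 to 0.688). Other members of the same response were near their F0 level. Ifit2 read 17 RPKM in F1 and 16.8 in F0, Oas1a 10.6 RPKM in F1 and 9.93 in F0 and Irf9, of the interferon receptor's transcription complex, 9.88 RPKM in F1 and 9.88 in F0. The list thus lay mostly below its F0 level, with some members near it. In F10 the median was -1.20 against the same F0 library, and Ifit1 read 1.64 and Isg15 2.49 RPKM.

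Presentation by MHC class I followed in part, with 11 of 17 members below their F0 level, 6 above and a median of -0.26. Tap1, which carries peptides into the ER, read 1.34 RPKM in F1 and 3.67 RPKM in F0, a ratio of 0.364 (0.215 to 0.624), and B2m, the light chain, 341 RPKM in F1 and 444 RPKM in F0, a ratio of 0.769 (0.721 to 0.821). The heavy chains H2-D1 and H2-K1 read 48.4 RPKM in F1 and 46.5 in F0 for H2-D1 and 23.3 RPKM in F1 and 21.1 in F0 for H2-K1. They belong to a multigene family whose reads can be shared between copies.

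Secreted immune proteins were among the genes farthest below their F0 level. Ccl5, a chemokine that draws T cells, read 7.55 RPKM in F1 and 62.9 RPKM in F0, a ratio of 0.12 (0.0724 to 0.182). Spp1, osteopontin, a secreted matrix and cytokine-like protein, read 2.37 RPKM in F1 and 19.2 RPKM in F0, a ratio of 0.124 (0.076 to 0.201). Cxcl10, an interferon-induced chemokine, read 11.2 RPKM in F1 and 24.6 RPKM in F0, a ratio of 0.457 (0.345 to 0.597). Raet1d, a ligand of the NKG2D receptor on killer cells, read 6.38 RPKM in F1 and 15.5 RPKM in F0, while its relative Raet1e stood higher at 21.6 RPKM in F1 and 12 RPKM in F0. These near-identical genes may share reads, so the opposite directions are uncertain. Of all 22 immune ligands 15 lay below and 7 above their F0 level, with a median of -0.25. At least 2-fold lower were 4 (background 1.04%). Tgfb1 read 3.45 RPKM in F1 and 6.86 RPKM in F0, a ratio of 0.503 (0.345 to 0.735), and Vegfa, the vessel growth factor that ATF4 and hypoxia can raise, 25 RPKM in F1 and 13.5 RPKM in F0, a ratio of 1.85 (1.41 to 2.44). The checkpoint ligand Cd274 read 3.09 RPKM in F1 and 2.61 in F0, a ratio of 1.18 (0.813 to 1.73). Genes of the NF-kB pathway leaned high, with 14 of 17 above their F0 level, 3 below and a median of 0.29. Relb, an NF-kB subunit, read 4.09 RPKM in F1 and 1.61 RPKM in F0, a ratio of 2.53 (1.49 to 4.53).

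The pigment programme was lower in F1 by small steps. Of 37 pigment and melanosome genes 28 lay below and 9 above their F0 level, with a median of -0.18. At least 2-fold lower was 1 gene (background 1.04%) and at least 2-fold higher 1 (background 0.989%). Trpm1, a cation channel and classic melanocyte marker, read 44.6 RPKM in F1 and 118 RPKM in F0, a ratio of 0.377 (0.343 to 0.414). Mlana, a melanosome antigen, read 988 RPKM in F1 and 1505 RPKM in F0, a ratio of 0.656 (0.633 to 0.68), and Pmel, which forms the melanosome fibrils, 2183 RPKM in F1 and 2714 RPKM in F0, a ratio of 0.804 (0.781 to 0.828). The melanin enzymes were close to F0. Tyr read 149 RPKM in F1 and 169.9 in F0, Dct 2493 RPKM in F1 and 2625 in F0 and Tyrp1 had a ratio of 1.04 (1.02 to 1.06). Slc45a2, a melanosome transporter, read 233 RPKM in F1 and 338 RPKM in F0, a ratio of 0.69 (0.662 to 0.718). Mcoln3, an endolysosomal cation channel, was the member at least 2-fold higher, at 5.99 RPKM in F1 and 0.98 RPKM in F0, a ratio of 6.11 (3.03 to 14), and read 27 RPKM in F10.

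The lineage regulators divided. Mitf, the master factor of melanocytes, read 43.9 RPKM in F1 and 57.9 RPKM in F0, a ratio of 0.758 (0.676 to 0.848), and Pax3, which acts upstream of it, 50.9 RPKM in F1 and 36 RPKM in F0, a ratio of 1.41 (1.28 to 1.56). Jun, a subunit of AP-1, was at least 2-fold higher at 13.7 RPKM in F1 and 5.62 RPKM in F0, a ratio of 2.44 (1.94 to 3.13). Etv5, a factor at the end of the MAPK pathway, was at least 2-fold lower at 0.587 RPKM in F1 and 2.54 RPKM in F0, a ratio of 0.231 (0.119 to 0.425). Id2, an inhibitor of helix-loop-helix factors, was also at least 2-fold lower, at 17.9 RPKM in F1 and 36.9 RPKM in F0, a ratio of 0.485 (0.39 to 0.597). Of the 20 regulators 8 lay above their F0 level and 12 below. Among immediate early genes, 20 of 29 lay above their F0 level and 9 below. Fos and Junb were among those below, at 0.306 RPKM in F1 and 1.25 in F0 for Fos and 0.174 RPKM in F1 and 1.22 in F0 for Junb. Both F1 values are under the 0.474 RPKM at which a transcript of 1 kb holds 3 fragments. Junb rested on about 2 estimated fragments in F1 and 12 in F0, a ratio of 0.143 (0.0156 to 0.645). The MAPK phosphatase Dusp6 read 14.7 RPKM in F1 and 22.9 RPKM in F0, a ratio of 0.642 (0.542 to 0.765). Dusp1, another such phosphatase, went the other way at 4.54 RPKM in F1 and 2.59 RPKM in F0, a ratio of 1.75 (1.07 to 2.96). Of 18 MAPK output and feedback genes 10 lay above their F0 level and 8 below, with a median of 0.087. At least 2-fold lower were 2 of them (background 1.04%) and none was at least 2-fold higher.

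Lysosomal genes lay below their F0 level for 34 of 44 members and above it for 10, with a median of -0.19. Grn, progranulin, read 77.6 RPKM in F1 and 135 RPKM in F0, a ratio of 0.576 (0.513 to 0.646), and Lipa, the acid lipase that frees cholesterol from LDL, 58.8 RPKM in F1 and 102 RPKM in F0, a ratio of 0.578 (0.535 to 0.625). Ctsk, a collagen-cutting cathepsin, was at least 2-fold higher on few fragments, at 2.53 RPKM in F1 and 0.236 RPKM in F0, a ratio of 10.7 (2.57 to 90.3). Subunits of oxidative phosphorylation coded in the nucleus lay below for 60 of 70 members and above for 10, with a median of -0.18 and none at least 2-fold apart.

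Matrix genes held both directions, with 6 of 29 at least 2-fold lower (background 1.04%) and 1 at least 2-fold higher (background 0.989%). Their median was -0.15. Emilin1, an elastic fibre protein, read 1.57 RPKM in F1 and 11.4 RPKM in F0, a ratio of 0.139 (0.0958 to 0.196). Sparcl1, a secreted relative of SPARC, was well covered and read 44.5 RPKM in F1 and 99.8 RPKM in F0, a ratio of 0.446 (0.401 to 0.497). Col4a2, a basement membrane collagen, read 0.724 RPKM in F1 and 2.58 RPKM in F0, a ratio of 0.28 (0.176 to 0.426), and its partner Col4a1 1.45 RPKM in F1 and 3.66 RPKM in F0, a ratio of 0.397 (0.159 to 0.819). Lamb1, a laminin chain of the same membrane, went the other way at 11.2 RPKM in F1 and 3.68 RPKM in F0, a ratio of 3.04 (2.45 to 3.77). Basement membrane collagen and laminin chains therefore differed in opposite directions. Fibronectin, Fn1, read 6.65 RPKM in F1 and 3.39 RPKM in F0, a ratio of 1.96 (1.61 to 2.42). Olfml1 and Col16a1, also at least 2-fold lower, had 3 estimated fragments each in F1. The Col16a1 estimate used a median transcript length of 452 bases, and a longer transcript would hold more fragments at the same RPKM.

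Among proteases, Mmp2, a gelatinase, and Plau, the urokinase that activates plasmin, were at least 2-fold lower, at 0.527 RPKM in F1 and 2.33 in F0 for Mmp2 and 0.205 RPKM in F1 and 2.55 in F0 for Plau. They rested on about 6 and 3 estimated fragments in F1, and Mmp14, the membrane protease that activates MMP2, read 58.8 RPKM in F1 and 77.4 RPKM in F0. Serpinh1, the collagen chaperone of the ER, read 309 RPKM in F1 and 209.7 RPKM in F0, a ratio of 1.47 (1.4 to 1.55). Itgb5, an integrin chain that binds vitronectin, was at least 2-fold higher at 7.43 RPKM in F1 and 2.61 RPKM in F0, a ratio of 2.84 (2.01 to 4.1), the 1 such member of 14 integrins.

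Of the 27 metastasis-linked genes 11 lay above their F0 level and 16 below. At least 2-fold higher was 1 (background 0.989%) and at least 2-fold lower were 3 (background 1.04%). Tmsb4x, the actin-binding thymosin beta 4, was the higher member at 9.57 RPKM in F1 and 0.835 RPKM in F0, a ratio of 11.5 (4.05 to 63.6). It has many near-identical copies in the genome, and reads may be shared with them. The lower members were Spp1, S100a4 and Ackr3. S100a4, a calcium-binding protein linked to motility, read 3.21 RPKM in F1 and 9.72 RPKM in F0, a ratio of 0.331 (0.131 to 0.817), and Ackr3, a scavenger receptor of CXCL12, 0.157 RPKM in F1 and 1.37 RPKM in F0, a ratio of 0.115 (0.0145 to 0.586). Cd44, a hyaluronan receptor, read 66 RPKM in F1 and 72.3 in F0. Some of these genes promote spread and others restrain it, so the counts give no direction for metastasis. The S100 and annexin genes lay below their F0 level for 14 of 15 members, with a median of -0.33. Among actin-binding proteins, Basp1 and Tagln2 were at least 2-fold higher, at 11.5 RPKM in F1 and 1.71 in F0 for Basp1 and 31.3 RPKM in F1 and 9.45 in F0 for Tagln2, and in F10 Tagln2 read 0.409 RPKM.

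At least 2-fold lower were 3 of 15 members of the oncofetal list, 2 of 11 of the retinoid list and 1 of 13 of the imprinted list (background 1.04%). The homeobox list had 7 members above and 9 below their F0 level, a median of -0.02 and none at least 2-fold apart. Igf2bp3, an oncofetal RNA-binding protein, read 0.811 RPKM in F1 and 6.13 RPKM in F0, a ratio of 0.132 (0.080 to 0.207). Hmga1 and Hmga2, chromatin proteins held down by let-7 in differentiated cells, read 16.9 RPKM in F1 and 54.8 in F0 for Hmga1 and 3.15 RPKM in F1 and 9.91 in F0 for Hmga2, with ratios of 0.309 (0.242 to 0.393) and 0.318 (0.24 to 0.416). These were the 3 of 15 members of the oncofetal list at least 2-fold lower (background 1.04%). The list had 4 members above and 11 below their F0 level, with a median of -0.20. Mest, an imprinted gene active on the paternal copy, read 1.78 RPKM in F1 and 14.7 RPKM in F0, a ratio of 0.121 (0.0471 to 0.273), while the 13 imprinted genes had a median of -0.12. In retinoid handling, Dhrs3, which reduces retinal, read 1.22 RPKM in F1 and 11.1 RPKM in F0, a ratio of 0.11 (0.053 to 0.223). Crabp2, which carries retinoic acid to the nucleus, read 0.534 RPKM in F1 and 5.8 RPKM in F0, a ratio of 0.0921 (0.018 to 0.299), with only 3 estimated fragments in F1. The retinoic acid receptor Rarb read 3.25 RPKM in F1 and 5.72 RPKM in F0, a ratio of 0.569 (0.36 to 0.889). Retinoic acid can raise all 3 of these genes, but its part in their differences was not tested. Of the 11 retinoid genes 8 lay below their F0 level and 3 above, with a median of -0.34. Among those above, Rdh14 read 9.59 RPKM in F1 and 5.32 RPKM in F0, a ratio of 1.80 (1.22 to 2.65).

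The remaining large differences were in genes of varied function. Isyna1, which makes inositol phosphate from glucose phosphate, read 14.1 RPKM in F1, on about 95 estimated fragments, and was listed at 0 in F0. In F10 it read 9.33 RPKM. Mgarp, a mitochondrial protein, read 3.0 RPKM in F1 and was listed at 0 in F0, as was Mageh1 with 2.29 in F1. Such a 0 can be a failed estimate. Conversely, Sncg, gamma-synuclein, and Csf2rb, a cytokine receptor chain, were listed at 0 in F1 and read 3.57 and 1.68 RPKM in F0. Naalad2, a peptidase, read 7.21 RPKM in F1 and 0.416 RPKM in F0, a ratio of 17.3 (6.39 to 64), and Pet2 8.93 RPKM in F1 and 0.223 RPKM in F0, a ratio of 40.1 (17 to 125). Hs3st1, a heparan sulphate sulphotransferase, read 12.4 RPKM in F1 and 2.66 RPKM in F0, a ratio of 4.66 (2.79 to 8.44). Ptprb, a receptor phosphatase, read 0.0269 RPKM in F1 and 3.33 RPKM in F0, and Kcnj13, a potassium channel, 1.55 RPKM in F1 and 7.74 RPKM in F0, a ratio of 0.20 (0.0723 to 0.45). The Ptprb value rests on 2 estimated fragments in F1 and 171 in F0. Adm, adrenomedullin, a hypoxia-induced peptide, read 9.29 RPKM in F1 and 3.38 RPKM in F0, a ratio of 2.75 (1.72 to 4.46), the 1 member of 26 hypoxia genes at least 2-fold apart. Glycolysis (median -0.04), the proteasome (-0.02), cytosolic heat shock proteins (-0.05) and autophagy (0.02) lay near the -0.01 of all compared genes, with no member at least 2-fold apart.

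Small differences were gathered along chromosomes. Chromosome 7 had the highest median, 0.15, with 523 of 746 genes above their F0 level, 20 at least 2-fold higher and 3 at least 2-fold lower. Chromosome 10 had the lowest, -0.14, with 161 of 516 above, 2 at least 2-fold higher and 13 at least 2-fold lower. Over all compared genes 0.989% were at least 2-fold higher and 1.04% at least 2-fold lower. On chromosome 8 a run of 114 compared genes between Orc6 and Nob1, at chr8:85299632-107425051 on GRCm38, had a median of -0.30, with 21 above their F0 level and 93 below. After subtraction of the median of genes of like GC content it was -0.27, and in F10, against the same F0 library, -0.38. On chromosome 2 the distal part stood low in 5 runs, the first between Fmn1 and Mapkbp1 at chr2:113327736-120027408, with 34 of 41 genes below and a median of -0.34. Chromosome 7 held 4 runs on the high side, among them 50 genes between Zfp580 and Ppp5c at chr7:5051538-17027924, with 43 above and a median of 0.27. On chromosome 10 a run of 61 genes at chr10:71330480-80015572 had a median of -0.24 in F1 and of 0.12 in F10. Of the 9 stress genes at least 2-fold higher, Ppp1r15a, Nupr1, Atf5 and Cebpg lie on chromosome 7 and Trib3 on chromosome 2. Atf5 lies inside a high run, between Pdcd5 and Prrg2. Hspa5 lies on chromosome 2. Blvrb, Adm, Relb, Slc1a5 and Vimp, higher in F1, also lie on chromosome 7. So do Trpm1, Ccne1, Tgfb1 and Olfml1, which were lower in F1. Of these, Slc1a5 and Adm lie inside high runs, and Ccne1, though lower, inside the same high run as Atf5. Among genes at least 2-fold lower, Gstt1 lies inside the low run of chromosome 10 and Mmp2 inside that of chromosome 8. The part of such shifts in the differences of single genes was not tested.

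**Figure D4:**
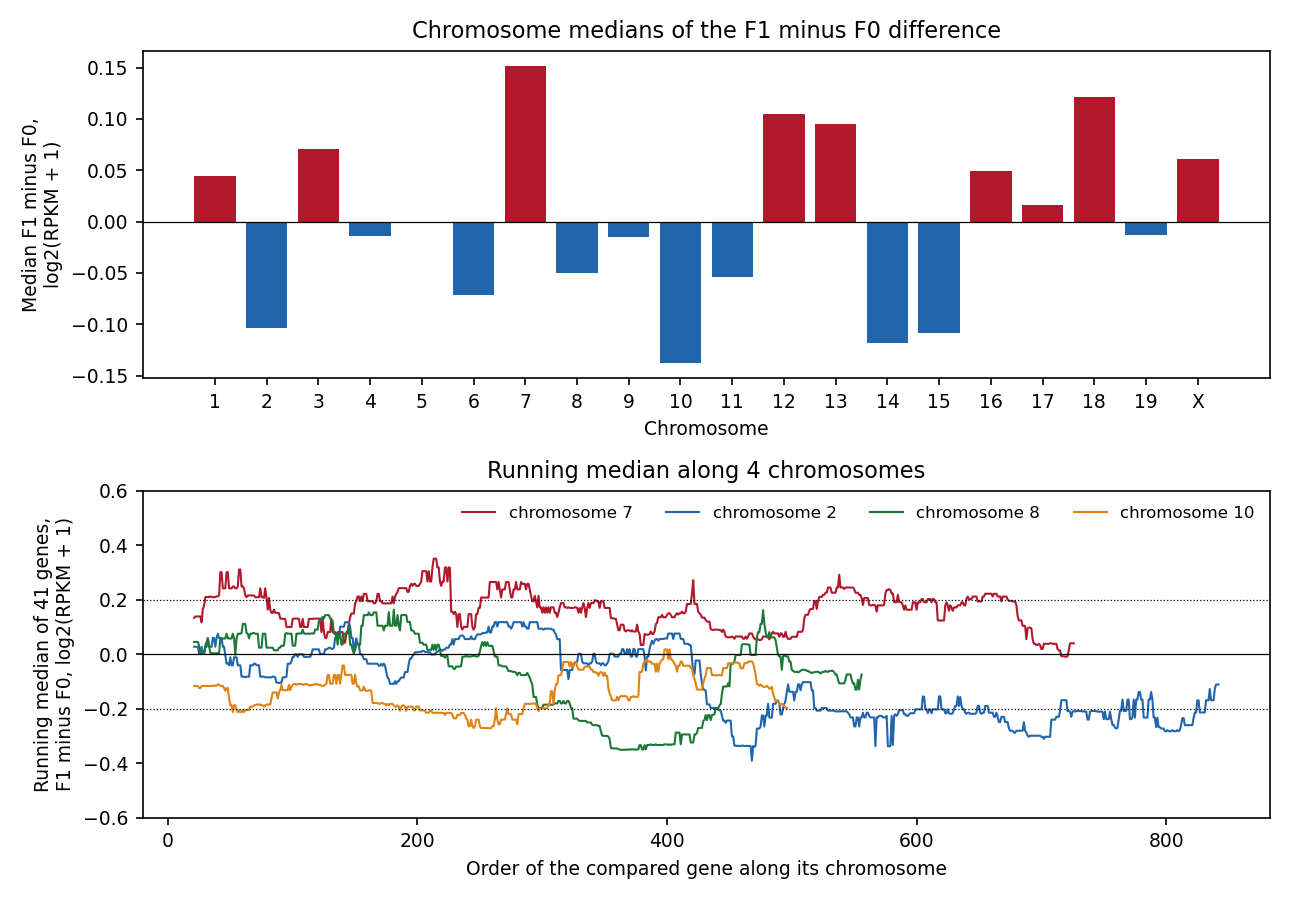
Top, median F1 minus F0 difference in log2(RPKM + 1) of the compared genes of each chromosome. Bottom, running median of 41 neighbouring genes (vertical axis) by gene order (horizontal axis) on chromosomes 7, 2, 8 and 10, with dotted lines at 0.2 and -0.2; chromosome 7 stays above 0 for nearly its whole length, and chromosome 8 holds a low stretch whose genes have a median of -0.30.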

How the data were processed

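RNA was measured in 1 library each of B16 F1, F0 and F10, assigned to groups by the subclone label. Libraries came from polyadenylated RNA by a stranded kit, per the labels' protocols. Per the submitters' processing notes, the build was mm10 and the tools were Bowtie2, TopHat, Cufflinks and bcl2fastq. Not given in the sources used here are their versions, settings, annotation and strand setting. The table deposited by the authors holds RPKM per gene and library, per the file headers, and a score for F1 and another for F10 against F0, which were not used. A deposited RPKM is not a count, so no count test was run.

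Of 14313 rows, 20 held a date (0.175% of all RPKM) and were left out. Genes with at least 1 RPKM in F1 or F0 were compared on log2(RPKM + 1) and counted at 2-fold. Fragments were estimated from RPKM, the median length of a gene's protein-coding transcripts less 40 bases (GENCODE M21, GRCm38; 99.54% of compared genes, 529 by an older symbol) and the value of 1 fragment in 1394 single-transcript genes; of low values, 85.2% in F1 and 80.1% in F0 lay within 5% of a step. Depth of F1 over F0 was 1.16 by this route. Intervals are 95% exact Clopper-Pearson intervals of the RPKM ratio. They and the floor of 3 fragments are approximate and cover counting error only. Where the median length is shorter than the transcript expressed, fragments are underestimated and the interval is too wide. Levels under 0.001 RPKM were treated as 0.

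The members and lists were chosen with earlier results of these data known. Named genes were the 15 genes farthest apart in each direction, without predicted genes, small RNAs and pseudogenes, with list members at least 2-fold apart, the 4 largest of each list, genes at 0 in 1 library and cell type markers. Genes named within a list beyond these, genes named for motif letters alone, and the 6 promoters shown were chosen after their values were seen, the promoters because they hold motif letters. Some genes that met the naming rule are not reported here. Promoter sequences are from RefSeq (GRCm38.p6). Running medians took 41 genes, and runs needed at least 20 genes past 0.2 or -0.2. Steps were tested on simulated data. Alternatives were other pseudocounts, filters, thresholds, scalings, GC bins and neighbouring genes, and list means. Python 3.11.15, numpy 2.4.6, pandas 2.3.3, scipy 1.17.1 and matplotlib 3.10.9 were used.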

Additional observations from a re-analysis of the deposited data

How the results depend on the processing

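The count of genes at least 2-fold higher in F1 (104) was 208 with a pseudocount of 0.1, 59 with a filter at 5 RPKM, 475 at 1.5-fold and 9 at 4-fold. The count lower in F1 (109) was 292 with a pseudocount of 0.1, 207 with 0.5, 64 with the filter, 600 at 1.5-fold and 10 at 4-fold. The pseudocount and filter act on low genes, which rest on few fragments. Under the other alternatives the counts stayed between 92 and 147 higher and between 94 and 109 lower, of which the TPM scale gave 114 higher against 98 lower, and subtraction of GC bin medians gave 104 against 97. TPM and median ratio scaling moved all genes by 0.036 and 0.017 on the log2 scale. Of 520 list values under alternatives, 37 moved by at least 0.1, besides the first 2 of the changes of sign named next. When the mean replaced the median, 5 of 52 lists changed sign, at -0.0105 for TGF-beta signalling (median 0.11), 0.0310 for actin-binding proteins (median -0.12), -0.0735 for MAPK output (median 0.087), -0.261 for polyamine genes (median near 0) and 0.00252 for glycolysis (median -0.04). Under the other alternatives 8 lists changed sign, with medians of at most about 0.040 in size. The cause was not tested. The 246 genes that met the naming rule were tried only with pseudocounts of 0.1 and 0.5 and on the TPM and median ratio scales. None of these 984 values changed sign. A pseudocount cannot change a sign and the scalings moved genes little, so this is no check of the signs. The signs of these genes were not examined after subtraction of GC bin or neighbour medians. Other genes near their F0 level were not counted. No paired analysis was possible because each subline had 1 library. Depth limits genes under about 0.5 RPKM in a transcript of 1 kb, where 3 fragments lie.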

Other observations

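Zinc finger genes with a Zfp symbol, gathered after their values were seen, leaned high in F1. Of 291 compared, 211 lay above their F0 level and 80 below. Of these genes 3 (1.03%) were at least 2-fold higher, a share near the 0.989% of all compared genes. The class had a median of 0.21 against -0.01 for all compared genes. The 69 on chromosome 7 had a median of 0.28 and the 222 elsewhere 0.16. The median GC content of the class was 45.8%, and compared genes in the lowest of 8 GC bins had a median of 0.10. The part of GC content in this difference was not tested. In F10 the class had a median of -0.02 against the same F0 library.

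Host genes of small nucleolar RNAs, listed after their values were seen, had a median of 0.22 over 12 members, with 7 above their F0 level and 5 below. Snhg12 read 28.3 RPKM in F1 and 9.85 in F0, and Snhg1 76.8 in F1 and 41.9 in F0, while Gas5, a growth arrest transcript, read 20.8 in F1 and 21.03 in F0. Snhg3, the member farthest below, read 2.94 in F1 and 5.12 in F0.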
